A study of Danio rerio with 49 samples.

Results

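The unfolded protein response genes described here are 36 genes of the endoplasmic reticulum (ER) stress pathway, taken by gene name from a zebrafish RNA sequencing series in which 32520 genes had values. Of the 36 names, 34 were found as written. The names dnajb9a and dnajb9b were found only as DNAJB9, which stands on 2 gene identifiers, so these are called dnajb9 with their identifiers (ENSDARG00000016886 and ENSDARG00000052072) and which is a and which is b is not given in the tables. By role the set holds 3 sensors, 5 transcription factors, 4 outputs of the integrated stress response, 7 members of the ER Hsp70 system, 3 other chaperones and secreted factors, 4 lectin chaperones, 4 disulfide isomerases, 5 genes of ER-associated degradation and 1 translocon subunit.

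Secreted and membrane proteins fold in the ER with the help of chaperones and disulfide isomerases, and misfolded ones are passed back to the cytosol for degradation. When folding falls behind, the sensors IRE1 (ern1), PERK (eif2ak3) and ATF6 switch on transcription factors that raise the genes of this machinery, while PERK lowers translation and favours ATF4. IRE1 acts by cutting the xbp1 mRNA, whose ends are then joined by an RNA ligase, known in mammals as RTCB. The counts used here are per gene and do not separate the cut and rejoined form of xbp1 from the uncut form.

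Wildtype zebrafish were set against MZrlig1 fish, which carry mutant rlig1 both maternally and zygotically, so that egg and embryo alike lack the intact gene of this other RNA ligase. Naturally spawned whole embryos, raised in darkness at 28 °C, were collected at the 4-cell stage (4 pools per genotype), at sphere (2 pools per genotype), and at shield, bud, 1 day post fertilization (dpf) and 5 dpf (3 pools per genotype at each). Heads came from 5 dpf larvae raised at 28 °C with 14 h of light and 10 h of darkness and sorted by a visual motion assay. Good responders gave 4 wildtype pools but 2 from MZrlig1, and bad responders gave 3 and 4. Each library is poly(A)-selected RNA of a pool of 10 embryos up to shield, of 8 embryos from bud on, or of 8 heads. The replicates are described as biological, but no label ties pools to separate clutches, so the p-values measure the spread between pools. In whole pools, fewer cells of a type and less RNA per cell cannot be told apart. With poly(A) selection, the amount of a transcript and the length of its poly(A) tail cannot be told apart either. This limit holds for the 4-cell values and for the step from 4-cell to sphere too.

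Total counts ranged from 12158453 to 18355308 per library, and replicates correlated with a Spearman's rho of 0.932 to 0.988 across genes. MZrlig1 replicate a at 1 dpf stood apart: it held counts for 7815 genes and for 27 of the 36 members, ribosomal protein genes took 46.5% of its counts, and its rho with the replicates of its group was 0.616 and 0.622. It is left out of all values below unless named. The targeted gene rlig1 had 19 to 1084 counts in every wildtype library, and 0 counts in all MZrlig1 libraries but 2: replicate c of the 4-cell stage held 2 and the fourth pool of bad-responder heads held 4. Defining genes of each stage and of eye and brain were present where the labels place them. Some were also found elsewhere. At shield eye and brain markers summed to 3.813 to 97.72 CPM in wildtype and 6.821 to 21.37 in MZrlig1. Exocrine pancreas markers summed to 0.3944 to 73.18 CPM in wildtype shield and 0.6601 to 5.915 in MZrlig1 shield libraries. The source of these counts was not tested. The trunk and tail markers summed to 7.854 to 31.57 CPM (counts scaled to a common library size) in heads. Not every stage list was highest at its own stage in wildtype. The sphere list summed to 705.7 to 742.2 CPM at sphere and 1849 to 2278 at shield. The 1 dpf list summed to 736 to 1041 CPM at 1 dpf and 3407 to 3776 at 5 dpf. Liver and exocrine pancreas markers were also found in heads, as given below. Of the 35 members found in RefSeq's annotation of GRCz12tu, 2 lie on the chromosome of rlig1 (pdia3 and the gene named dnajb9a there), and neither pdia3 nor either dnajb9 identifier was called for genotype below.

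Across normal development the members did not move as a block. In wildtype, 14 of the 36 had their highest mean CPM at 4-cell, 7 at sphere and 4 at shield, while 8 peaked at bud, 3 at 5 dpf and 0 at 1 dpf, so the largest group was highest in the maternal stage. The fold between a member's highest and lowest stage had a median of 7.96 and was smallest for derl1 at 2.22. The highest stage was the same in MZrlig1 for 28 members and the lowest stage for 25.

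**Figure D1:**
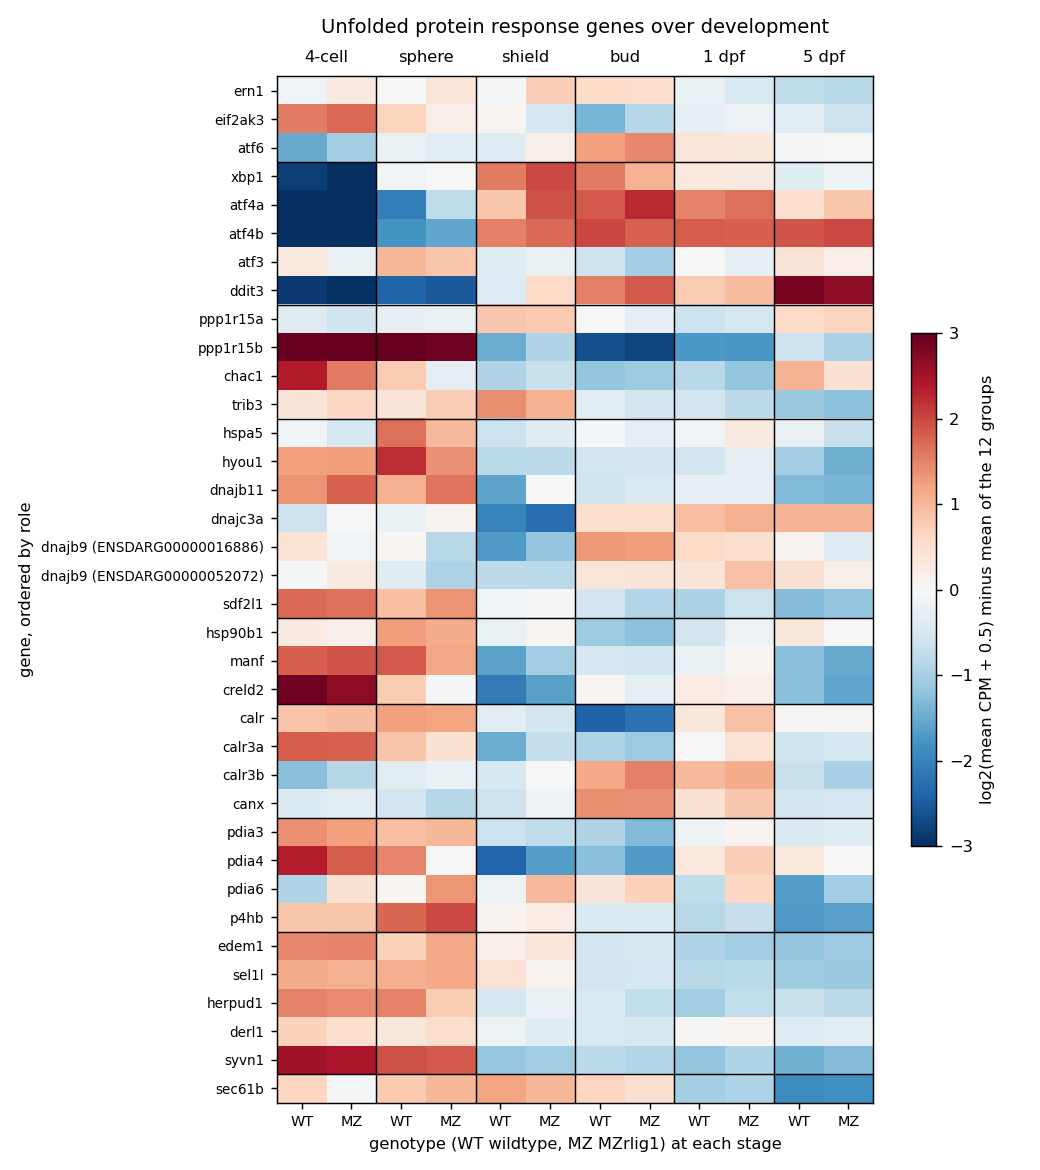
Mean level of each of the 36 members (rows, grouped by role) in each stage and genotype (columns), as log2 of the mean CPM plus a small constant, relative to the gene's mean over the 12 groups, with colours saturating beyond 3 log2 units. Many chaperone, isomerase and degradation genes are high at 4-cell and sphere, whereas xbp1, atf4a, atf4b and ddit3 are lowest at 4-cell in both genotypes. Of these, atf4a and atf4b are high from shield on and ddit3 from bud on. In both genotypes xbp1 is highest at shield and lower at each later stage.

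Levels of different genes can be set side by side only per length, in the deposited FPKM. At wildtype 4-cell the highest was chac1, an enzyme that breaks down glutathione and is a known output of ATF4, at 615 ± 35.8 FPKM (SD, n = 4), followed by the translocon subunit sec61b at 491 ± 141 and the lectin chaperone calr3a at 380 ± 53.4. At sphere sec61b (714 ± 99.3 FPKM, n = 2), p4hb (579 ± 22.3), a disulfide isomerase, and hspa5 (545 ± 26.4), the ER Hsp70 known as BiP, stood highest. By shield the transcription factor xbp1 was next to sec61b (324 ± 13.5 and 636 ± 84.2 FPKM, n = 3). In wildtype heads of good responders atf4a (240 ± 30.5 FPKM, n = 4), atf4b (230 ± 29.0), chac1 (219 ± 20.2), xbp1 (155 ± 27.0) and hspa5 (113 ± 5.48) led the set, and the first 3 do not differ beyond their spread. The sensors had wildtype stage means of 2.83 to 5.20 FPKM for ern1, 3.14 to 18.9 for atf6 and 4.35 to 37.4 for eif2ak3.

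Each adjacent pair of wildtype stages was compared in 1 edgeR quasi-likelihood fit of the 35 whole-embryo libraries, and a gene is called at a Benjamini-Hochberg adjusted p under 0.05. Log2 fold changes are later over earlier stage, with their standard error (SE). From 4-cell to sphere 11 members rose and 8 fell, where 23.6% of all 22985 genes tested were called higher and 15.7% lower. The members' median log2 fold change was 0.01 and that of all genes 0.07. From sphere to shield 6 rose and 21 fell (all genes, 30% higher and 25.1% lower), with medians of -1.20 and 0.22. From shield to bud 16 rose and 9 fell (26.8% and 20.3%), with medians of 0.29 and 0.04. From bud to 1 dpf 9 rose and 10 fell (31.7% and 26.6%), with medians of -0.17 and 0.09, and from 1 dpf to 5 dpf 5 rose and 13 fell (31.7% and 28%), with medians of -0.34 and 0. The largest departure from all genes was thus the fall between sphere and shield.

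Scaling by DESeq2 size factors raised the median of all genes by 0.28 from sphere to shield, by 0.16 from bud to 1 dpf and by 0.28 from 1 dpf to 5 dpf. The members that rose and fell were then 7 and 19, 12 and 7, and 7 and 9 in these 3 steps. The sphere to shield fall kept its direction, while the split between rises and falls from bud to 1 dpf tipped from falls to rises. No called member changed sign.

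**Figure D2:**
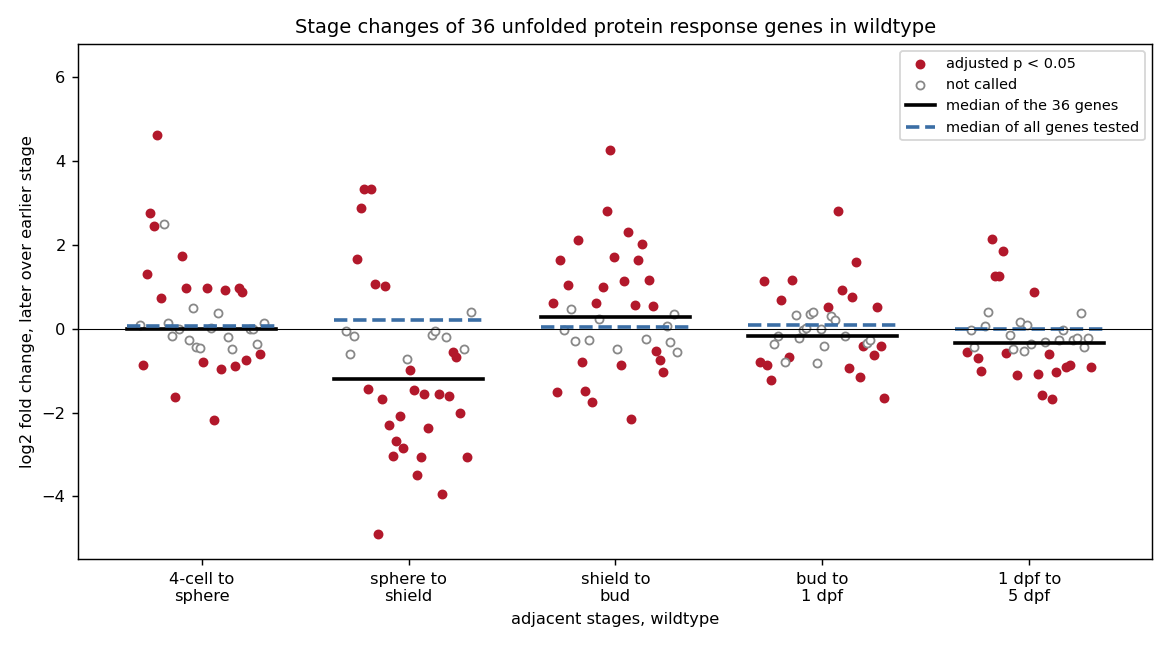
Log2 fold change of each member (points) between adjacent wildtype stages (columns), red where the adjusted p was under 0.05. The black line is the members' median and the dashed blue line that of all genes tested, and only from sphere to shield do they lie more than 1 log2 unit apart, at -1.20 and 0.22.

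Most transcription factors rose in the first steps. From 4-cell to sphere 4 of the 5 rose and 0 fell, and from sphere to shield 4 rose and 1 fell. The factor xbp1 measured 36.7, 30.2, 22.8 and 12.4 CPM in the 4 wildtype 4-cell libraries, 174 and 171 at sphere, and 589, 543 and 504 at shield. These 3 groups did not overlap, and the log2 fold changes were 2.75 ± 0.29 (SE, adjusted p 5.48e-09) and 1.66 ± 0.34 (adjusted p 0.000107). The paralogs atf4a and atf4b, which drive the integrated stress response, started lower still. In wildtype 4-cell libraries atf4a measured 2.31 to 4.17 CPM and atf4b 0.398 to 0.912, against 17.2 and 17.3 and against 15.9 and 17.3 at sphere. By shield atf4a reached 150.0, 144 and 91.2 CPM and atf4b 196, 150 and 160 CPM. Both therefore climbed without overlap at each step, by 2.45 and then 2.90 log2 units for atf4a and by 4.62 and then 3.34 for atf4b (adjusted p at most 7.23e-10 in each). The factor ddit3, known as CHOP and linked in mammals to cell death under lasting ER stress, had counts in 1 of the 4 wildtype 4-cell libraries and 0.100 and 0.366 CPM at sphere. It rose at shield (log2 fold change 3.35, adjusted p 4.51e-05), at bud (2.12, adjusted p 8.01e-05) and from 1 dpf to 5 dpf (2.15, adjusted p 2.07e-05), where it measured 25.9, 27.8 and 27.5 CPM. The stress factor atf3 went the other way at shield (-1.44, adjusted p 0.000261).

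The Hsp70 system dropped at shield, where 6 of its 7 members fell and 0 rose. The chaperone hspa5 measured 278, 333, 245 and 196 CPM in wildtype 4-cell libraries, 853 and 902 at sphere, and 204, 166 and 167 at shield. The sphere libraries lay far above both neighbours, while 4-cell and shield overlapped. The log2 fold changes were 1.74 ± 0.20 (adjusted p 1.27e-08) and -2.29 ± 0.22 (adjusted p 1.8e-10). Its nucleotide exchange factor hyou1 rose by 0.98 (adjusted p 0.0165) and then fell by 3.04 (adjusted p 3.16e-08), and its co-chaperone dnajb11 fell by 2.67 from sphere to shield (adjusted p 3.35e-13). From shield to bud 5 of the 7 rose and 0 fell. The co-chaperone dnajc3a went from 0.998, 2.24 and 1.54 CPM at shield to 9.25, 12.5 and 12.6 at bud (2.82, adjusted p 2.33e-06), and dnajb9 (ENSDARG00000016886) from 0.166, 0.263 and 0.463 to 7.81, 4.32 and 5.50 CPM (4.27, adjusted p 2.63e-08). Both groups were separated without overlap, at low levels.

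The other chaperones, isomerases and degradation genes shared the fall at shield. The disulfide isomerase pdia4 measured 251, 287, 245 and 242 CPM at wildtype 4-cell, 136 and 141 at sphere, and 7.65, 9.53 and 9.96 at shield, a log2 fold change of -3.93 ± 0.18 in the last step (adjusted p 3.83e-16). It fell at each step without overlap and rose again at bud (1.17, adjusted p 3.84e-07) and 1 dpf (1.60, adjusted p 4.41e-10). All 3 other chaperones and secreted factors fell at shield, with manf, a secreted factor that protects neurons in mammals, at -3.50 (adjusted p 9.05e-14). The ER protein gene creld2 fell by 3.06 (adjusted p 3.87e-10). Of the 5 degradation genes 4 fell, led by the ubiquitin ligase syvn1 at -3.06 (adjusted p 7.06e-15). Exceptions in these roles were pdia6 (-0.20, adjusted p 0.437), calr3b (-0.16, adjusted p 0.625), derl1 (-0.48, adjusted p 0.0675) and canx (-0.05, adjusted p 0.851), none of which was called at this step.

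The outputs of the integrated stress response went separate ways. The phosphatase subunits ppp1r15a and ppp1r15b both restore translation by removing the phosphate that PERK adds to eIF2. From sphere to shield ppp1r15b dropped from 93.1 and 85.8 CPM to 2.91, 3.75 and 2.24 (-4.90 ± 0.43, adjusted p 5.97e-11). Over the same step ppp1r15a rose from 21.4 and 17.2 CPM to 43.2, 40.2 and 38.7 (1.07 ± 0.30, adjusted p 0.00328). The paralogs thus moved in opposite directions over this step, each without overlap between stages. The gene chac1 fell at each of the first 2 steps (-1.63, adjusted p 2.34e-08, and -1.67, adjusted p 4.18e-09). It rose from 84.9, 93.2 and 68.5 CPM at 1 dpf to 285, 301 and 304 at 5 dpf (1.85 ± 0.17, adjusted p 1.65e-10). In that last step 3 of the 4 outputs rose and the pseudokinase gene trib3 fell (-0.57, adjusted p 0.00191).

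The lectin chaperones, which hold glycoproteins in the folding cycle, were not alike. The soluble calr fell at shield (-1.54, adjusted p 3.13e-06) and bud (-2.16, adjusted p 6.21e-09) to 12.1, 19.7 and 13.9 CPM, and rose at 1 dpf to 99.1, 110 and 115 (2.82, adjusted p 3.19e-11). The membrane-bound canx moved opposite to calr at bud and at 1 dpf and was not called at shield. It measured 277, 307 and 258 CPM at shield and 1096, 1228 and 1108 at bud (2.03 ± 0.15, adjusted p 2.52e-12), then fell at 1 dpf (-0.93, adjusted p 2.99e-06) and 5 dpf (-1.02, adjusted p 7.21e-07). Of the sensors, eif2ak3 fell at bud (-1.50, adjusted p 5.32e-05) where atf6 rose (1.64, adjusted p 3.55e-08), and from sphere to shield no sensor was called, with eif2ak3 nearest (-0.60, adjusted p 0.0901).

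Genotypes were compared at each stage by a fit of that stage alone, with log2 fold changes as MZrlig1 over wildtype. Members called were 3 of 34 tested in 4-cell embryos (all genes, 3.16% called), 19 of 35 in sphere (36%) and 3 of 34 in shield embryos (3.84%). Later they were 0 of 36 at bud (0.814%), 1 of 36 by 1 dpf (1.03%) and 0 of 36 by 5 dpf (1.02%). The members' median log2 fold change was -0.03 at 4-cell and -0.02 at sphere, against 0.01 and -0.02 in all genes. From shield on it was 0.18, then -0.02 at bud, 0.16 in 1 dpf embryos and -0.11 at 5 dpf, against 0.02, 0.01, 0.00 and -0.01 in all genes. At sphere the median near 0 stands over members called in both directions, 8 higher and 11 lower. Members with a log2 fold change above 0 numbered 15 of 34 at 4-cell (all genes, 51.7%), 17 of 35 at sphere (48.9%) and 23 of 34 at shield (51.8%). Later they numbered 17 of 36 at bud (51.2%), 25 at 1 dpf (49.8%) and 15 at 5 dpf (49%). The member called at the most stages was pdia6.

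The disulfide isomerase pdia6, known in mammals to act on the IRE1 sensor as well, had its mean higher in MZrlig1 at all 6 stages and was called at 4. At 4-cell it measured 160, 139, 121 and 121 CPM in MZrlig1 and 58.6, 60.6, 51.2 and 38.6 in wildtype. At sphere the values were 247 and 246 against 96.6 and 107. Neither stage had any overlap, and the log2 fold changes were 1.38 ± 0.16 (adjusted p 0.000946) and 1.29 ± 0.08 (adjusted p 5.64e-07). At shield it measured 174, 239 and 172 CPM against 100.3, 82.0 and 84.5 (1.04 ± 0.17, adjusted p 0.0104). At 1 dpf it measured 145 and 161 CPM against 56.1, 67.4 and 51.1 (1.41 ± 0.13, adjusted p 0.000785). All MZrlig1 libraries again lay above all wildtype ones. At bud the groups overlapped, with 154, 190.0 and 137 CPM against 99.3, 169 and 119 (0.35 ± 0.20, adjusted p 0.543), although MZrlig1 was the higher in each of the 3 same-lettered pairs. At 5 dpf they did not, with 45.4, 56.6 and 41.7 CPM against 34.4, 26.5 and 32.3, but the difference was not called (0.58 ± 0.13, adjusted p 0.115). The shield call was lost without wildtype replicate b or c, with an adjusted p of at most 0.0934. The 1 dpf call was lost when MZrlig1 replicate a was kept, at a log2 fold change of 1.51 and an adjusted p of 0.968.

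**Figure D3:**
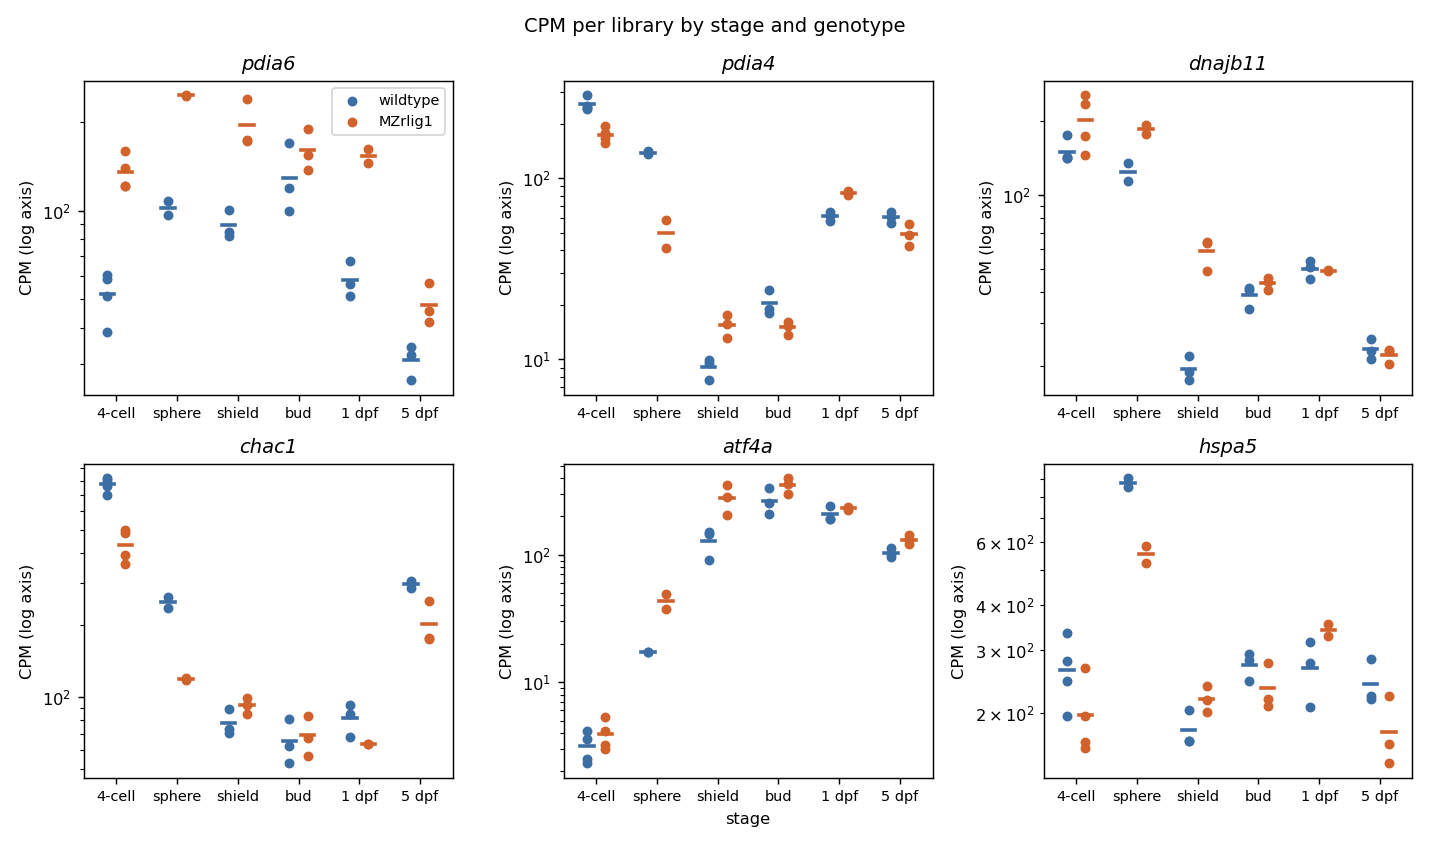
CPM on a log axis of 6 members in each whole-embryo library by stage and genotype (points, with bars at the group means). The MZrlig1 points of pdia6 lie above the wildtype ones at every stage but bud, where they overlap, and those of dnajb11 stand apart at sphere and shield.

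At 4-cell, before the zygotic genome is active, the transcripts are maternal. Besides pdia6, 2 members were called and both were lower in MZrlig1. The glutathione-degrading enzyme chac1 measured 500, 484, 359 and 391 CPM in MZrlig1 and 807, 762, 818 and 700 in wildtype (-0.83 ± 0.13, adjusted p 0.00407). The isomerase pdia4 measured 195, 178, 168 and 157 CPM against 251, 287, 245 and 242 (-0.55 ± 0.12, adjusted p 0.0283). Neither gene had overlapping groups. The pdia4 call was lost under the replicate block and without any one of 6 of the 8 libraries (adjusted p up to 0.127), whereas the chac1 call held under all 13 alternatives run. Mitochondrially encoded transcripts took 2.85% to 4.05% of counts in MZrlig1 and 1.38% to 1.69% in wildtype at this stage, and their part in these differences was not tested.

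At sphere 8 members were higher and 11 lower in MZrlig1. The isomerases parted: pdia6 was higher, as was p4hb (0.29, adjusted p 0.00447), while pdia4 measured 59.0 and 41.1 CPM against 136 and 141 (-1.45 ± 0.14, adjusted p 5.89e-05). In the Hsp70 system hspa5 measured 525 and 586 CPM against 853 and 902 (-0.64 ± 0.07, adjusted p 3.53e-05), and hyou1 measured 320 and 278 against 558 and 526 (-0.84, adjusted p 7.53e-06). The co-chaperone dnajb11 went up, with 193 and 177 CPM against 135 and 114 (0.59, adjusted p 0.000403), and so did sdf2l1 (0.47, adjusted p 0.0013). The chaperone hspa5 and its co-chaperone dnajb11 thus differed in opposite directions, each without overlap between 2 libraries per genotype. With the spread taken from all 35 whole-embryo libraries neither was called.

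Among the transcription factors 1 of 4 tested was called at sphere: atf4a, with 37.4 and 48.9 CPM in MZrlig1 and 17.2 and 17.3 in wildtype (1.34 ± 0.16, adjusted p 4.97e-05). Its output chac1 was lower, at 119 and 120 CPM against 235 and 263 (-1.05 ± 0.08, adjusted p 2.42e-06). Among the outputs of the integrated stress response trib3 was the 1 called higher (0.38, adjusted p 0.0392). Of the sensors, ern1 was higher (0.40, adjusted p 0.049) and eif2ak3 lower (-0.49, adjusted p 0.00604). The remaining lower members were creld2 (-0.80, adjusted p 0.00637), herpud1 (-0.70, adjusted p 0.00783), manf (-0.65, adjusted p 0.000143), calr3a (-0.39, adjusted p 0.00099), ppp1r15b (-0.28, adjusted p 0.0339) and canx (-0.27, adjusted p 0.0234). The degradation gene edem1 was higher (0.45, adjusted p 0.000931).

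The sphere comparison has 2 libraries of each genotype, whose biological coefficient of variation was 0.109, against 0.276 at 4-cell and at shield. With the spread taken from all 35 whole-embryo libraries 4 members were called: atf4a and pdia6 higher, chac1 and pdia4 lower. The 36% of all genes called belongs to the fit of sphere alone and is no background for these 4. The MZrlig1 sphere libraries also differed in markers of stage: the 10 early zygotic genes found by name summed to 1050 and 1064 CPM against 706 and 742 in wildtype, and the 10 shield markers to 380 and 472 against 235 and 255, with 0 of the 20 at 0. The summed maternal markers, which fell from sphere to shield in wildtype, were also higher in both MZrlig1 sphere libraries than in either wildtype one. The early zygotic and shield markers rose over that step in wildtype, so the marker lists did not all differ in its direction. Whether the MZrlig1 sphere pools were at a later stage was not tested. Mitochondrial transcripts took 3.16% and 3.43% of counts, more than in either wildtype sphere library. The part of these in the sphere differences was not tested. The wildtype sphere libraries also serve in the wildtype stage comparisons. From sphere to shield atf4a rose by 2.90 log2 units, and pdia4, chac1 and hspa5 fell by 3.93, 1.67 and 2.29, while pdia6 (-0.20) was not called. Other members higher in MZrlig1 at sphere were mixed in this step. In wildtype dnajb11 went from 135 and 114 CPM at sphere to 17.5, 22.0 and 18.9 at shield. All wildtype shield libraries also lay below sphere for p4hb, sdf2l1 and edem1, but above it for trib3, and ern1 overlapped.

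At shield 3 members were higher in MZrlig1 and 0 lower. The largest difference was in dnajb11, with 48.9, 63.8 and 64.3 CPM in MZrlig1 and 17.5, 22.0 and 18.9 in wildtype (1.52 ± 0.19, adjusted p 0.00375), which held under all 11 alternatives. The factor atf4a measured 350, 285 and 204 CPM against 150.0, 144 and 91.2 (1.05 ± 0.23, adjusted p 0.034). Both genes had no overlap between genotypes. The atf4a call was lost without any one of 5 of the 6 libraries (adjusted p up to 0.15), and without wildtype replicate b or c dnajb11 was the 1 member called. The sensor ern1 (50.4, 46.6 and 51.8 against 23.9, 31.6 and 28.9 CPM) did not overlap either but was not called (0.73 ± 0.18, adjusted p 0.0572). The lectin calr3a (70.0, 123 and 102 against 61.4, 57.6 and 52.1 CPM) was likewise separate and not called (0.70 ± 0.20, adjusted p 0.0884). DESeq2 called both, as did the fit with the spread of all 35 libraries. The isomerase pdia4 measured 15.7, 13.1 and 17.6 CPM in MZrlig1 and 7.65, 9.53 and 9.96 in wildtype. The groups did not overlap and stood in the reverse order of the earlier stages. The fit of shield alone did not call pdia4 (0.69 ± 0.24, adjusted p 0.158), while the fit with the spread of all 35 libraries did. Mitochondrial transcripts took 2.21% to 2.77% of counts in MZrlig1 and 1.26% to 1.91% in wildtype, and the 10 shield markers summed to 2523 to 2953 CPM against 2078 to 2466, with 0 of 10 at 0. The part of either was not tested.

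**Figure D4:**
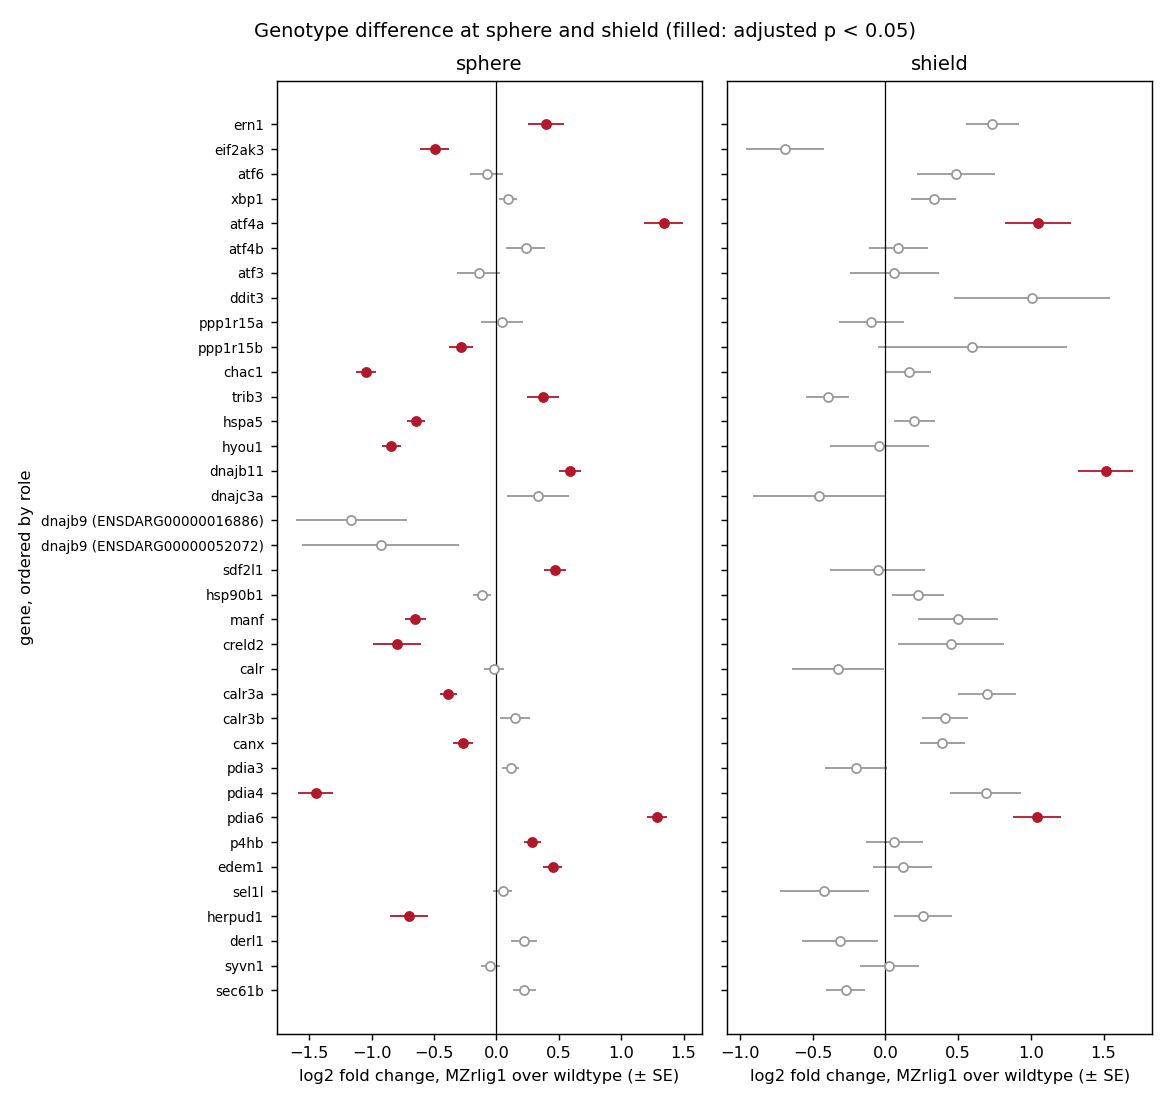
Log2 fold change of MZrlig1 over wildtype with its SE for each member at sphere and at shield, filled where the adjusted p was under 0.05. At sphere 19 members are filled on both sides of 0, and at shield dnajb11, atf4a and pdia6 are filled, all above 0.

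At bud edgeR called 0 members and DESeq2 0. In edgeR 2 of 36 had an unadjusted p under 0.05 (all genes, 1974 of 15846), atf4a and pdia4. The factor atf4a measured 297, 397 and 361 CPM in MZrlig1 against 208, 331 and 255 in wildtype (0.44, adjusted p 0.381). For pdia4 the values were 15.3, 16.1 and 13.6 CPM against 18.8, 24.2 and 18.1 (-0.41, adjusted p 0.391). The atf4a groups overlapped, with MZrlig1 higher in each of the 3 same-lettered pairs, and those of pdia4 did not overlap. With the letters as a block 0 members were called. Wildtype replicate b stood apart for several members, with calr3b at 82.5 CPM against 211 and 198 in replicates a and c, and xbp1 at 776 against 374 and 462. Ribosomal protein genes took 8.10% of its counts against 4.56% and 5.30%, and the part of this was not tested.

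At 1 dpf pdia6 was the 1 member called, and 25 of the 36 had a log2 fold change above 0, against 49.8% of all genes. Next came calr, with 154 and 158 CPM in MZrlig1 and 99.1, 110 and 115 in wildtype (0.55 ± 0.11, adjusted p 0.0587), which did not overlap. It was called by DESeq2, without a filter on low counts and without wildtype replicate c, where the count was 3. Hatching gland markers, from a secretory cell type, summed to 1106 and 1300 CPM in MZrlig1 and to 1416 to 1516 in wildtype, with 0 of 12 at 0. Their part was not tested.

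At 5 dpf edgeR called 0 members and DESeq2 called 2, pdia6 and chac1. In edgeR 10 of the 36 members had an unadjusted p under 0.05, against 2092 of all 20465 genes. The gene chac1 measured 176, 252 and 177 CPM in MZrlig1 and 285, 301 and 304 in wildtype, without overlap (-0.61 ± 0.14, adjusted p 0.111). The chaperone hspa5 measured 144, 222 and 163 CPM against 282, 218 and 222 (-0.50, adjusted p 0.306), which overlapped, and pdia4 measured 42.4, 55.9 and 48.4 against 65.2, 56.6 and 60.7 (-0.36, adjusted p 0.278), which did not. Without MZrlig1 replicate b, the highest of its group for these 3 genes, edgeR called 3 members: chac1, hsp90b1 and hspa5. Several marker sums were higher in all MZrlig1 than in all wildtype libraries at 5 dpf: 1 dpf stage markers (4078 to 5560 against 3407 to 3776 CPM, 0 of 9 at 0), hatching gland (341.7 to 446 against 287.6 to 327.4, 1 of 12 at 0 in each genotype) and trunk and tail (104 to 131 against 82.54 to 97.68, 0 of 17 at 0). Bud markers (89.27 to 105.5 against 58.81 to 70.63 CPM, 1 of 11 at 0) and maternal ones (6.258 to 8.503 against 0.9493 to 1.394) were so too. Their part was not tested.

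Whether the genotype difference depends on the stage was tested jointly over the 35 whole-embryo libraries. It did for 4 of 36 members, against 5.92% of all 22985 genes: pdia4 (adjusted p 2.86e-06), dnajb11 (0.00015), chac1 (0.00247) and pdia6 (0.0256). For pdia4 the log2 fold changes ran -0.55, -1.45, 0.69, -0.41, 0.43 and -0.36 from 4-cell to 5 dpf, so it was called lower at the first 2 stages and lay on either side of 0 after them. Those of dnajb11 were 0.59 at sphere and 1.52 at shield but 0.19 and not called at bud (adjusted p 0.586). Those of pdia6 stayed above 0 and differed in size. With MZrlig1 replicate a of 1 dpf in the fit only pdia4 was called.

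The xbp1 gene was not called for genotype at any stage or in heads. Its log2 fold change was 0.09 at sphere (179 and 184 CPM against 174 and 171, adjusted p 0.34) and 0.33 at shield (707, 890 and 586 CPM against 589, 543 and 504, adjusted p 0.28). The ligase gene RTCB (ENSDARG00000101047), which is no member, was not called either, with log2 fold changes between -0.17 at 5 dpf (adjusted p 0.642) and 0.35 at 4-cell (adjusted p 0.732) over the 6 stages. Of the tRNA ligase complex 6 genes were found. At sphere 1 was called lower (all genes, 36% called), and at 5 dpf 1 was lower (1.02%). At the other 4 stages none was called, with 1 to 3 of the 6 at an unadjusted p under 0.05 in edgeR. Of all 12925 to 18758 genes tested at these stages, 1580 to 2832 had such a p.

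In heads the 4 groups were fitted together. Members called for genotype were 0 of 36 in good responders (all genes, 0.708%), 0 of 36 in bad responders (0.983%) and 1 of 36 averaged over behaviour (2.73%). Unadjusted p-values under 0.05 in edgeR numbered 4 in good and 4 in bad responders (all 21464 genes, 2196 and 1476). DESeq2 called 1 and 0 members there. Log2 fold changes above 0 numbered 17 of 36 in good responders (all genes, 45.6%), 9 in bad (53%) and 10 over both (47.4%). The members' median log2 fold change was -0.01 for good and -0.10 for bad responders and -0.07 over both, against -0.04, 0.02 and -0.01 in all genes.

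The member called was calr3b, a calreticulin paralog of the lectin chaperone group. It measured 17.2 and 15.8 CPM in MZrlig1 good responders and 28.7, 17.8, 21.0 and 28.4 in MZrlig1 bad responders. In wildtype it measured 38.7, 26.6, 42.3 and 27.8 CPM in good responders and 29.1, 39.7 and 39.4 in bad responders. Within each behaviour class all MZrlig1 heads lay below all wildtype heads, and over both classes the ranges overlapped. The averaged log2 fold change was -0.81 ± 0.17 (adjusted p 0.0156), with -1.04 in good (adjusted p 0.0937) and -0.59 in bad responders (adjusted p 0.436). The call was lost under the replicate block and without replicate 2 or 3 of the MZrlig1 good responders, and the adjusted p ranged from 0.000725 to 0.117 over the alternatives. In whole larvae of 5 dpf calr3b measured 35.9, 33.7 and 42.5 CPM in MZrlig1 and 45.8, 47.0 and 45.5 in wildtype (-0.34, adjusted p 0.381), also without overlap.

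**Figure D5:**
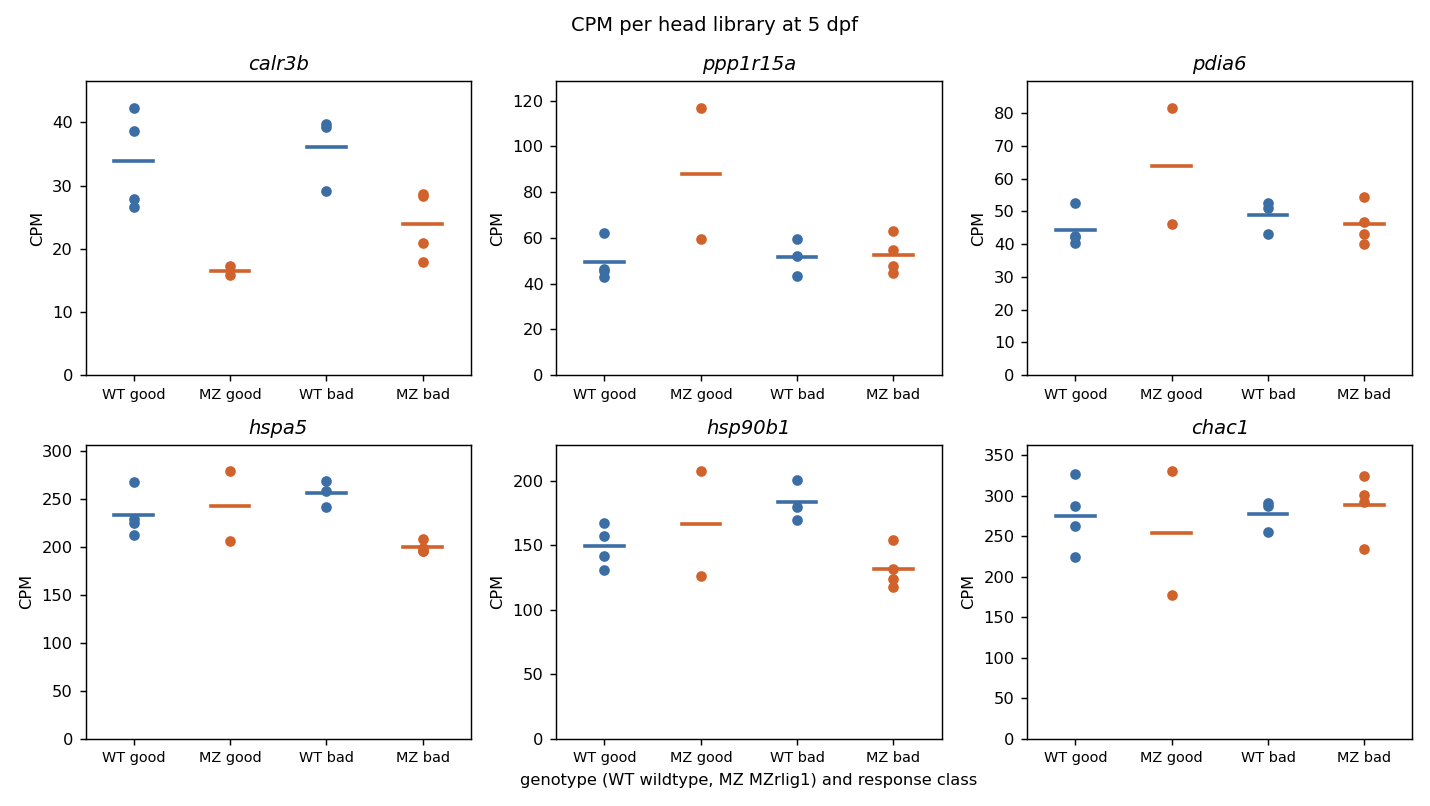
CPM of 6 members in each head library in the 4 groups of genotype and behaviour (points, with bars at the group means). For calr3b the MZrlig1 heads lie below the wildtype heads of the same behaviour class, and replicate 3 of the MZrlig1 good responders is the high point of its group for ppp1r15a, pdia6, hspa5 and hsp90b1.

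Replicate 3 of the MZrlig1 good responders differed from replicate 2 across much of the set. It measured 117 CPM for ppp1r15a against 59.4, 81.6 for pdia6 against 46.1, 207 for hsp90b1 against 126, and 233 for pdia3 against 111, but 178 for chac1 against 330 CPM. Mitochondrial transcripts took 1.27% of its counts and 3.46% of those of replicate 2, and their part was not tested. The wildtype good responders measured 42.9, 62.2, 46.5 and 45.5 CPM for ppp1r15a, so 1 of the 2 MZrlig1 libraries lay above all of them (0.84 ± 0.24, adjusted p 0.17). This gene was the 1 member called in good responders without replicate 2, with replicate 3 then alone in its group and its spread taken from the other groups. In bad responders hspa5 measured 195, 196, 209 and 199 CPM in MZrlig1 and 241, 258 and 268 in wildtype. These did not overlap, and the difference was not called (-0.36 ± 0.14, adjusted p 0.49). The isomerase pdia6, higher in MZrlig1 embryos, measured 40.0 to 54.5 CPM in MZrlig1 bad responders and 43.1 to 52.4 in wildtype ones (-0.09, adjusted p 0.985). In good responders it measured 46.1 and 81.6 CPM in MZrlig1 and 40.2, 52.6, 42.6 and 42.2 in wildtype, which overlapped (0.53 ± 0.21, adjusted p 0.383).

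Behaviour gave 0 called members in wildtype heads (all genes, 0%) and 0 in MZrlig1 heads (0.00466%), and the interaction of genotype and behaviour gave 0 (0%). By edgeR 0, 5 and 5 members had an unadjusted p under 0.05 in these comparisons, against 167, 1135 and 818 of all 21464 genes. DESeq2 called 0 members in each. The smallest p in wildtype heads was that of hsp90b1, the ER Hsp90 (0.30 bad over good responders, adjusted p 1). In MZrlig1 heads and in the interaction it was that of ppp1r15a (-0.75, adjusted p 0.821, and -0.82, adjusted p 0.856). Exocrine pancreas markers, which heads should lack, summed to 535 to 11340 CPM in wildtype good, 2797 to 6392 in wildtype bad, 9988 to 10810 in MZrlig1 good and 2135 to 10190 in MZrlig1 bad heads, with 0 of 13 at 0. Liver markers summed to 13380 to 15680 CPM in MZrlig1 good heads against 5158 to 12540 in wildtype good heads, without overlap, and to 9084 to 13750 against 4917 to 11780 in bad heads, with 0 of 18 at 0. In whole 5 dpf larvae, scaled apart from heads, pancreas markers summed to 1395 to 4163 CPM in wildtype and 3518 to 4288 in MZrlig1. Liver markers there summed to 5719 to 8223 CPM in wildtype and 7331 to 9380 in MZrlig1. Blood markers in bad heads summed to 194.1 to 282.3 CPM in MZrlig1 and 330 to 530.2 in wildtype, with 0 of 6 at 0. Acinar cells and hepatocytes are rich in ER genes, and the part of these tissues in the head values was not tested.

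Other genes of the secretory pathway moved in part with the members. Of 75 other ER folding and secretion genes listed, 70 names were found, on 73 identifiers. From sphere to shield 13 of these rose and 32 fell, with a median of -0.39, against 30% and 25.1% of all genes. From shield to bud 36 rose and 10 fell (all genes, 26.8% and 20.3%), and from 1 dpf to 5 dpf 6 rose and 47 fell (31.7% and 28%), with a median of -0.83. At sphere, where 36% of all genes were called, 22 of 66 were higher and 11 lower in MZrlig1, with the translocon-associated SSR4 (1.17, adjusted p 1.14e-06) and the translocon subunit SEC61G (0.77, adjusted p 0.000591) highest, and CREB3L2 (-0.77, adjusted p 0.0116) and KDELR3 (ENSDARG00000040912, -0.69, adjusted p 0.0191) lowest. At 4-cell the oxidase gene ERO1B was lower (-0.58, adjusted p 0.0236), at shield SEC61A1 (ENSDARG00000021669, -0.58, adjusted p 0.0267) and at 1 dpf SSR1 (-1.60, adjusted p 0.00791). At bud and 5 dpf edgeR called 0, with 6 of 69 and 4 of 73 at an unadjusted p under 0.05. Over all genes these were 1974 of 15846 and 2092 of 20465. In heads of good responders SSR1 was higher (1.03, adjusted p 0.0211) and TXNDC12 lower (-0.93, adjusted p 0.0211), so SSR1 was called in opposite directions in 1 dpf embryos and in heads.

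Known ATF4 targets other than the members were called at sphere in both directions, in a comparison that called 36% of all genes. Of 38 listed, 35 names were found, and at sphere 9 of 32 tested were higher and 6 lower, among them nupr1a (1.62, adjusted p 9.97e-05) and SHMT2 (-1.01, adjusted p 0.000621). At shield, where atf4a was also called, edgeR called 0 of 34, with 7 at an unadjusted p under 0.05 (all genes, 2832 of 14903). At 5 dpf STC2 (ENSDARG00000056680) was higher (0.78, adjusted p 0.0168). Of the other heat shock genes listed, 7 of 17 tested were higher at sphere and 0 lower. Of all 15093 genes tested there 2844 were higher and 2589 lower (36% called), so the calls of this list lay on 1 side. The largest rises in it were HSPB1 (2.08, adjusted p 2.39e-08) and SERPINH1 (ENSDARG00000075954, 1.99, adjusted p 3.12e-05). At the other stages edgeR called 0 genes of this list, with 2 to 5 of 15 to 22 tested at an unadjusted p under 0.05. Of all 12925 to 20465 genes tested at these stages, 1580 to 2832 had such a p. Of the mitochondrial chaperones and proteases 2 of 20 were higher and 5 lower at sphere, a share called near the 36% of all genes. CLPX (ENSDARG00000067796) was lower there and at shield (-1.32, adjusted p 0.00162, and -1.81, adjusted p 0.00681). In heads averaged over behaviour 2.73% of all genes were called. There 1 of 37 ATF4 targets tested was higher and 1 of 22 heat shock genes lower. Of 17 mitochondrial genes tested 1 was higher and 3 were lower.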

How the data were processed

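Poly(A) RNA of pooled zebrafish embryos or larval heads was sequenced. The authors deposited raw counts per gene, as whole numbers, and FPKM values for the same libraries, and a deposited normalised table was not used. The submitters' processing notes name STAR 2.7.10b, Salmon 0.14.1, DESeq2 1.42.1 and the build GRCz11, with no roles. The use of strand is not given in the sources used here, so reads of antisense genes could be shared. With the roles of the tools not given, reads of paralogs (atf4a and atf4b, the calreticulin genes, the DNAJB9 pair) could be shared as well. Of 37241 genes, 32520 had values. The members and gene lists were chosen with earlier results of these data known.

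Tests used edgeR 4.0.16 (R 4.3.3) with TMM scaling, filterByExpr and a robust quasi-likelihood fit, adjusted by Benjamini-Hochberg over all genes tested and called under 0.05. Stages were fitted alone, heads as 4 groups, and stage steps and the genotype-by-stage test in the 35 whole-embryo libraries without MZrlig1 1 dpf replicate a. SE was taken as |log2 fold change|/√F. CPM use TMM factors over the 35 embryo or 13 head libraries. The procedure was also run on counts simulated for the shield comparison with the same spread for every gene. That spread was smaller than in the real shield fit, whose biological coefficient of variation was 0.276. The run thus does not show how the procedure does at the real shield spread or in the other designs. The text may name any member; of the other lists it names RTCB and at most 2 called genes per direction, each reaching a mean of 5 CPM.

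Alternatives were DESeq2 1.42.0, its size factors within edgeR, no filter, the spread of all 35 libraries, replicate a kept, a replicate block and leaving out each library. Among genotype comparisons with several same-lettered pairs, samples deviated together in all pairs only at bud (r of 0.432, 0.548 and 0.366). There the block called 0 members, as did the fit without it. The r was also above 0 in all pairs from wildtype bud to 1 dpf (0.249, 0.48 and 0.0883) and in the only pair at sphere (0.0865).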

Additional observations from a re-analysis of the deposited data

Results flagged for a closer look

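Of 143 member and group pairs with 4 libraries, 4 had 1 library far from the others, where chance gives about 1 in 20. The transcription factor atf4b measured 2.007 CPM in MZrlig1 4-cell replicate d, against 0.4361 to 0.5238 in the other 3. The factor ddit3 measured 0.1326 CPM in wildtype 4-cell replicate a and 0 in the others, which is at the limit of detection. The co-chaperone dnajb11 measured 174.4 CPM in wildtype 4-cell replicate b against 141.4 to 142.1. The stress factor atf3 measured 14.46 CPM in replicate 2 of the wildtype good-responder heads, against 8.021 to 8.769.

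The genotype difference varied with stage for 4 members in the joint edgeR test: pdia4 (adjusted p 2.86e-06), dnajb11 (0.00015), chac1 (0.00247) and pdia6 (0.0256).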

How the results depend on the processing

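Over 18 comparisons, 211 of 228 alternative counts of called members stayed within 1.5 times the reported count and 17 did not. Of 1367 alternative log2 fold changes of called members, 1209 kept their call, 158 lost it and 0 changed sign. The shares of all genes given above belong to the reported fits and not to these alternatives. With the spread of all 35 libraries 4 members were called at sphere (19 reported) and 6 at shield (3 reported). DESeq2 called 5 at shield, 2 at 1 dpf, 2 at 5 dpf, 1 in good-responder heads and 9 by stage. Without a filter 2 were called at 1 dpf, and with MZrlig1 replicate a kept 0 at 1 dpf and 1 by stage. Leaving out 1 library gave 1 to 3 at shield, 1 to 3 at 1 dpf, 0 to 3 at 5 dpf, 0 to 1 in good-responder heads and 0 to 1 in heads averaged over behaviour. The cause was not tested.

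The replicate block called 0 in heads averaged over behaviour (1 reported), 2 at 4-cell (3 reported), 3 at shield, 5 by stage (4 reported), 21 from shield to bud, 16 from bud to 1 dpf and 22 from 1 dpf to 5 dpf (25, 19 and 18 reported). No label ties same-lettered or same-numbered samples to each other, and at bud the pairing was taken from their correlation alone. No paired analysis was possible at sphere or for the steps from 4-cell to sphere and sphere to shield because the groups share fewer than 2 letters. Low counts limit ddit3 at 4-cell and sphere and both dnajb9 genes.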
